A study of Mus musculus with 435 samples.

Results

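The genes for the nuclear-encoded subunits of the mitochondrial respiratory chain were followed in single cells of the fetal mouse testis. The members were all genes of the deposited table whose symbol starts with Ndufa, Ndufb, Ndufc, Ndufs, Ndufv, Sdha to Sdhd, Uqcr, Cox4 to Cox8 or Atp5, without assembly factors (Ndufaf, Sdhaf) and without pseudogenes named as such. They numbered 83 of 16459 genes, with 38 in complex I, 4 in complex II, 8 in complex III, 16 in complex IV and 17 in complex V. The rule goes by name: Ndufa4, now counted with complex IV, stood with complex I, and Cox7a2l, which joins complexes into larger assemblies, stood with complex IV. Atp5s and Atp5sl stood with complex V by their prefix alone and may not belong to it. All cells were XY, carried the NR5A1-eGFP reporter on a mixed background and were sorted as eGFP positive and negative for the dead-cell dye Draq7, so a cell had to switch on Nr5a1, the transcription factor of gonadal somatic cells, to enter. The late cells came from E12.5, E13.5 and E16.5 testes, and the early cells from E10.5 and E11.5 gonads. The replicates were 9 microfluidic captures, 1 at E10.5 and 2 at each other stage. The number of embryos or litters in a capture is not in the labels, so p-values measure the spread between captures, which may be partly technical.

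Complexes I to IV pass electrons from NADH and succinate to oxygen, all but complex II pump protons across the inner mitochondrial membrane, and complex V, the ATP synthase, lets the protons back and makes ATP. Most subunits are encoded in the nucleus and a few in the mitochondrial genome; the mitochondrially encoded ones were not analysed here. Several complex IV subunits exist as pairs of genes, a widely expressed form and a form known from heart and skeletal muscle, lung or sperm. Fetal Sertoli cells enclose the germ cells and are the first somatic cells of the gonad to take on a testis fate.

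Values were RPKM per cell, which is per length. The gene lengths behind them were not given in the sources used here, so orders of level between genes are approximate. For Atp5l, exonic length in GENCODE M21 is 6443 bases and the longest coding transcript has 544 bases. Without 3 cells of under 3000 detected genes, and with a near-identical pair of cells averaged, 396 cells remained, between 30 and 59 per capture. The median cell of a capture had between 4905 and 6503 detected genes. The depth implied by the smallest step between values was 7.83 to 8.10 M reads in the median cell of the captures labelled 25 M reads (E10.5 and E13.5), and 2.20 to 3.24 M reads in those labelled 10 M reads (the other stages). The first E13.5 capture stood apart: it alone was made on a medium chip, the others on small chips, and 54 of the 83 members had their highest capture mean in it. The summed Sertoli markers were 712 to 4063 RPKM in late and 77.96 to 194 RPKM in early captures.

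The 83 members together made up 2.77% to 3.19% of all RPKM in 8 captures and 3.97% in the first E13.5 capture. In single cells their share lay between 1.02% and 6.0%, with a median of 3.06%. Of the 83 members, 35 had a mean over captures of at least 100 RPKM, 37 lay between 10 and 100 RPKM, and 11 lay below 10 RPKM. A cell had a median of 70 members at 1 RPKM or more, and the range was 22 to 80. Within a capture, cells with more detected genes had more detected members (Spearman correlations of 0.51 to 0.83 over the cells, as a description).

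**Figure D1:**
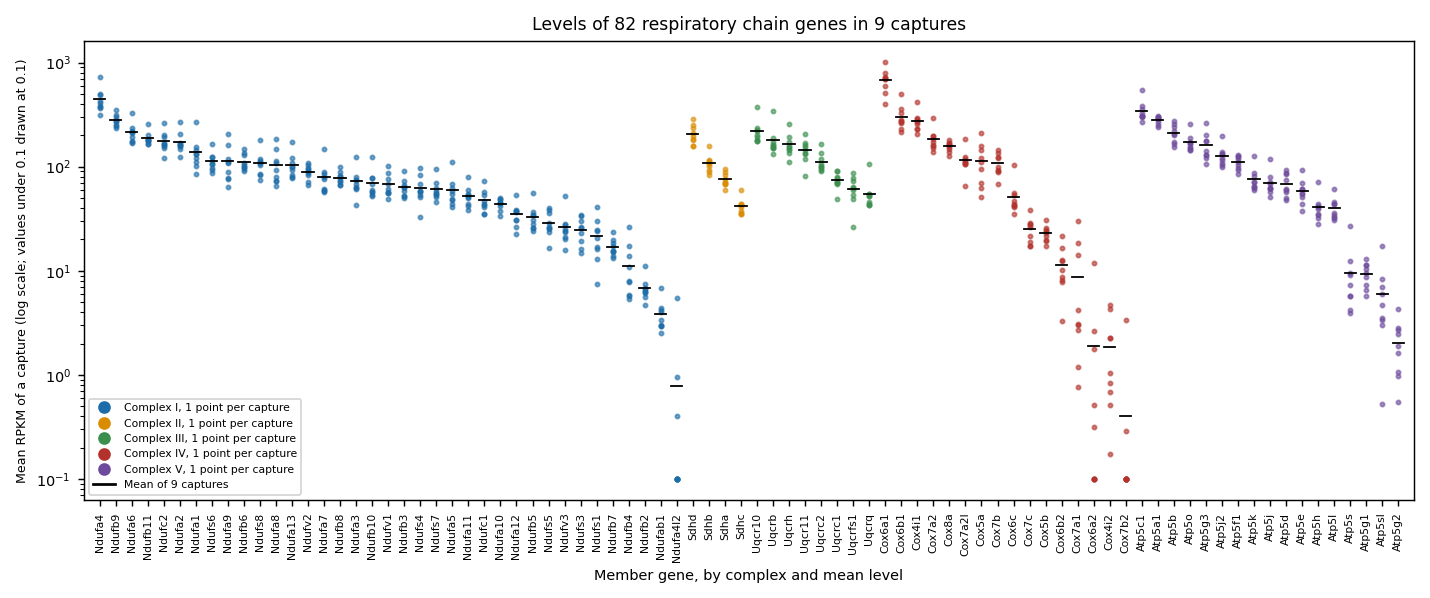
Mean RPKM per capture (points, log axis) and mean of the 9 captures (lines) for 82 of the 83 members, grouped by complex. Most genes lie between 10 and 500 RPKM with captures close together, while the isoform genes Cox7a1, Cox6a2, Cox4i2, Cox7b2 and Ndufa4l2 lie below 10 RPKM and spread most between captures for their level.

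In complex I, which takes electrons from NADH, the highest members were Ndufa4 at 442 ± 120 RPKM and Ndufb9, an accessory subunit of the membrane arm, at 279 ± 37.1 RPKM (mean ± SD over 9 captures). The 38 genes of the complex had a median level of 65.6 RPKM and were found, at 1 RPKM or more, in a median of 86.9% of cells. Ndufs1, which carries iron-sulfur clusters of the electron path, was found in fewer cells than that, in 60.9% at 21.5 ± 9.79 RPKM.

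In complex II, which oxidises succinate, the membrane anchor Sdhd stood highest at 207 ± 43.7 RPKM. The iron-sulfur subunit Sdhb followed at 107.9 ± 22.1 RPKM, the flavoprotein Sdha at 75.9 ± 11.4 RPKM, and the anchor Sdhc at 41.6 ± 7.80 RPKM. The 2 anchors, which sit in the membrane as partners, were thus the highest and the lowest of the complex. In complex III, which hands electrons to cytochrome c, the small subunits Uqcr10 (220 ± 61.2 RPKM) and Uqcrb (179 ± 61.8 RPKM) were highest, and Uqcrq was lowest at 54.9 ± 19.7 RPKM.

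Complex IV, which reduces oxygen to water, held the highest member of all, Cox6a1, at 683 ± 176 RPKM, and also the lowest, Cox7b2, at a mean of 0.40 RPKM. The other widely expressed subunits Cox6b1 (301 ± 86 RPKM), Cox4i1 (273 ± 60.3 RPKM), Cox7a2 (184 ± 45 RPKM) and Cox8a (156 ± 16.51 RPKM) followed. Cox7a2l stood at 115.2 ± 31 RPKM and Cox7b at 107.4 ± 25.1 RPKM. In complex V the rotor shaft gene Atp5c1 (344 ± 81.5 RPKM) and the alpha subunit Atp5a1 (282 ± 23.5 RPKM) were highest. The 5 genes of the F1 part, head and shaft together, had a median level of 211 RPKM, with a range of 58.7 to 344 RPKM. For the 10 genes of the membrane part and stalk the median was 73.2 RPKM, with an overlapping range of 2.04 to 171 RPKM. These 10 include Atp5h and Atp5l, whose levels are uncertain for the reason given below.

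Where several genes encode the same subunit, a single gene supplied most of the RPKM. Atp5g1, Atp5g2 and Atp5g3 encode the same mature c-ring protein. Atp5g3 had 160 ± 49 RPKM, Atp5g1 9.32 ± 2.43 RPKM and Atp5g2 2.04 ± 1.16 RPKM. Cox4i2, the form known from lung, took 0.06% to 1.65% of the Cox4i1 and Cox4i2 sum over the captures. Cox6b2, known from sperm, took 1.16% to 9.10% of the Cox6b1 and Cox6b2 sum. Cox6a2 and Cox7a1, the forms of heart and skeletal muscle, took up to 1.65% and between 0.50% and 10.3% of their sums with Cox6a1 and Cox7a2. Ndufa4l2, a relative of Ndufa4 known to respond to low oxygen, was found in 1.52% of cells and Cox7b2 in 0.51%. The genes Cox8b and Cox8c were not analysed here.

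The counting can move levels of single members. In windows of 100 bases of GENCODE M21 transcripts, 53 of 82 annotated members shared none with another gene, 29 shared some, and 16 of those shared with an annotated pseudogene. Atp5l (40.1 ± 9.90 RPKM), a membrane subunit of the ATP synthase, shared 47.2% of its windows with the processed pseudogene Gm10221, which was listed at 187 ± 49.7 RPKM. Atp5h (40.9 ± 12.6 RPKM), of the peripheral stalk, shared 29.5% with the pseudogene Gm10250, listed at 199 ± 67.1 RPKM. Atp5g2 (2.04 ± 1.16 RPKM) shared 4.28% with the pseudogene Gm10175, listed at 15.03 ± 3.61 RPKM. The listed pseudogenes stood above the members themselves. The levels of Atp5l, Atp5h and other members with such copies are therefore uncertain.

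Late against early captures asked whether the chain as a whole changes when the gonad becomes a testis. No member of the 81 tested passed the threshold (limma on log2(mean RPKM + 1), Benjamini-Hochberg adjusted p under 0.05 over 12313 genes), where 0.577% of all genes did. At an unadjusted p under 0.05 there were 3 members (3.70%), against 10.9% of all genes. The median difference of the members was 0.04 on the log2 scale, with 45 positive and 36 negative, and that of all genes tested was -0.01. Without the first E13.5 capture the members' median was -0.08, with 32 positive. It was also negative with the same sum in every cell, at -0.03 beside -0.06 for all genes, and where each cell was put on the log2 scale before averaging, at -0.16 beside -0.04. In means over all cells of a capture, fewer cells of a type and less RNA per cell cannot be told apart. The 2 members not tested, Cox7b2 and Ndufa4l2, fell below the filter of 1 RPKM in at least 2 captures.

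Summed by complex, late and early captures lay close together. Complex I had a sum of 3464 ± 813 RPKM in late captures (n = 6) and 3209 ± 162 RPKM in early captures (n = 3). Complex II had 447 ± 71.5 RPKM in late and 403 ± 27.1 RPKM in early captures. Complex III had 1015 ± 279 RPKM in late and 999 ± 34.2 RPKM in early captures. These differences were smaller than the spread of the late captures. Complex IV had 2081 ± 440 RPKM in late and 2008 ± 244 RPKM in early captures. Complex V had 1784 ± 308 RPKM in late and 1796 ± 107.9 RPKM in early captures. The spread of the late sums rested on the first E13.5 capture, without which the late sums (n = 5) were 3142 ± 226, 421 ± 36, 904 ± 64.7, 1906 ± 103.6 and 1666 ± 116.4 RPKM for complexes I to V. For complexes I, III, IV and V, leaving it out turned or widened the difference to a late sum below the early mean.

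**Figure D2:**
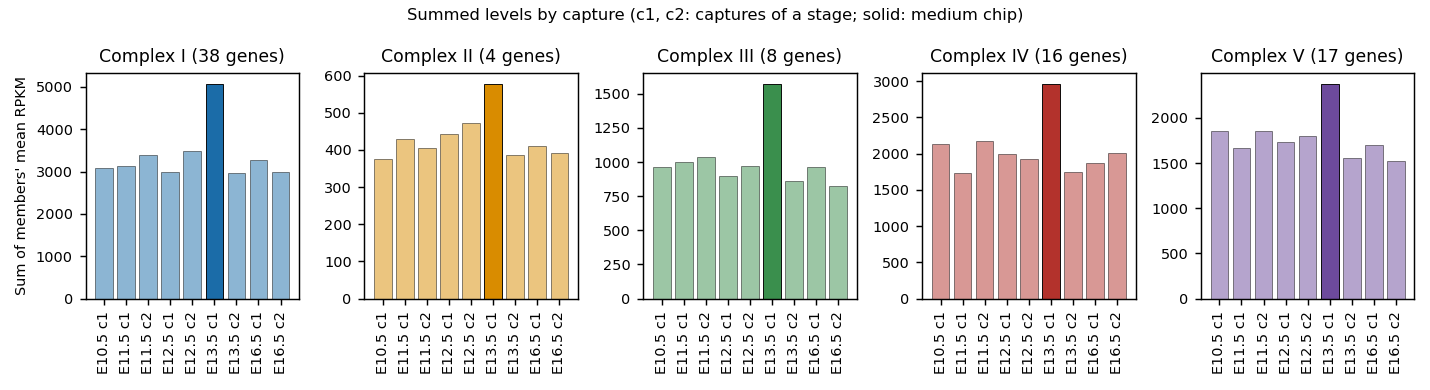
Sum of the members' mean RPKM for each complex in the 9 captures (bars, from 0). The first E13.5 capture, on the medium chip (solid bars), has the highest sum in all 5 complexes, 5070 RPKM for complex I against 2970.1 RPKM in the other E13.5 capture.

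The single members nearest to a change belonged to complexes IV and V. Cox5a, a matrix-side subunit of complex IV, had 110.9 and 95.3 RPKM at E12.5, 51.1 and 62.4 RPKM at E13.5 and 144 and 69.7 RPKM at E16.5, against 209 RPKM at E10.5 and 121 and 158 RPKM at E11.5. Late captures were mostly lower, but the first E16.5 capture lay above the lowest early one. The difference was -0.92 ± 0.32 (log2, SE; limma adjusted p = 0.273). Cox6b2 had 10.2 and 12.7 RPKM at E12.5, 12.4 and 8.63 RPKM at E13.5 and 21.5 and 16.6 RPKM at E16.5, against 3.30 RPKM at E10.5 and 8.20 and 7.79 RPKM at E11.5. All late captures lay above all early ones, with a difference of 1.002 ± 0.40 (limma adjusted p = 0.360). Atp5b, the catalytic beta subunit, averaged 188 ± 26.4 RPKM in late and 259 ± 18.3 RPKM in early captures, without overlap (-0.47 ± 0.20, limma adjusted p = 0.395).

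Groups did not overlap for 3 members higher in late captures (3.70% of those tested, against 2.96% of all genes) and 3 lower (3.70% against 2.56%), shares near the background. By complex, the estimates furthest from 0 were for Ndufb4 (0.86 ± 0.44) and Ndufab1, the acyl carrier protein (-0.55 ± 0.41), in complex I, and Uqcrq (0.24 ± 0.30) and Uqcrc1, a core protein (-0.36 ± 0.23), in complex III. In complex II all 4 estimates were above 0, between 0.05 for Sdha and 0.18 for Sdhd. In complex V they were Atp5g2 (0.48 ± 0.48) and Atp5d, of the rotor shaft (-0.51 ± 0.25). None passed the threshold. Cox7a1 had the largest positive estimate of complex IV and of all members, 1.36 ± 0.76 (limma adjusted p = 0.573).

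**Figure D3:**
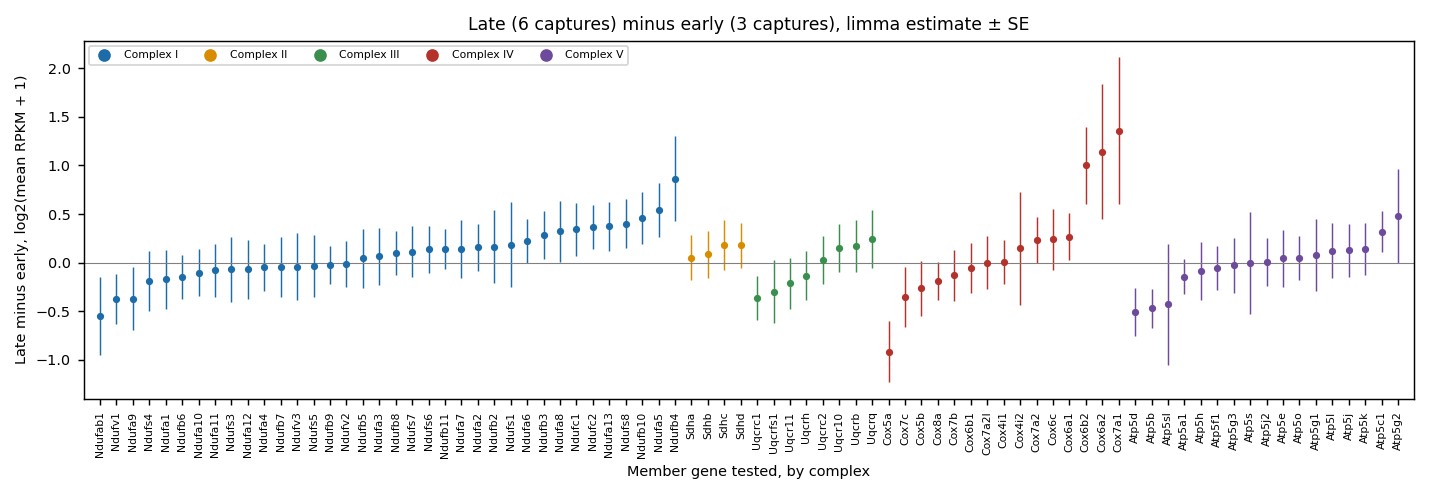
Late minus early difference of log2(mean RPKM + 1) with its SE for 80 of the 81 members tested (limma, 6 late and 3 early captures), ordered within each complex. Estimates lie on both sides of 0 in complexes I, III, IV and V, from -0.92 for Cox5a to 1.36 for Cox7a1, and none passed the threshold.

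The early and late groups each hold captures of both sequencing depths. The difference of late minus early between the 25 M and the 10 M read captures was called for no member, where 0.00812% of all genes were called; at an unadjusted p under 0.05 there were 2 members, against 4.88% of all genes. These 2 were Cox5a at -1.42 ± 0.56 and Ndufa9, an accessory subunit of complex I, at 1.33 ± 0.54 (limma adjusted p = 0.955 and 0.975). Cox7a1 had a larger but less precise value, 2.06 ± 1.32 (limma adjusted p = 0.999). Within the 25 M read captures Cox5a had 51.1 and 62.4 RPKM at E13.5 against 209 RPKM at E10.5. Within the 10 M read captures it had 69.7 to 144 RPKM at E12.5 and E16.5 against 121 and 158 RPKM at E11.5. The lower late values of Cox5a thus stood apart from the early ones only in the deeper captures, and the runs hold different stages, so depth and stage cannot be told apart there.

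Between stages no member passed the threshold in any of 7 contrasts of a fit with stage as a factor. The share of all genes called was 0.39% for E11.5 against E10.5, 0% for E12.5 against E11.5, 0% for E13.5 against E12.5 and 0.0893% for E16.5 against E13.5. It was 1.52% for E16.5 against E11.5, 0.357% for E16.5 against E12.5 and 1.06% for E13.5 against E10.5. At an unadjusted p under 0.05 there were 0 members in E11.5 against E10.5, where 6.39% of all genes passed, and 0 in E12.5 against E11.5, where 7.8% did. There were 4 members in E13.5 against E12.5 (4.57% of all genes), 4 in E16.5 against E13.5 (8.47%) and 3 in E16.5 against E11.5 (12.9%). There were 4 in E16.5 against E12.5 (12.2%) and 3 in E13.5 against E10.5 (9.14%). Each of these counts is at most 4.94% of the members tested. In the step in which testis cords form, E12.5 against E11.5, both within the 10 M read captures, the members' median difference was 0.05, with 43 positive and 38 negative. In E16.5 against E12.5 and in E16.5 against E11.5, also within those captures, it was -0.09 and -0.11, beside -0.06 and -0.08 for all genes. With cells on the log2 scale before averaging, the members' medians were -0.21 in E12.5 against E11.5, -0.15 in E16.5 against E12.5 and -0.36 in E16.5 against E11.5, the first with the opposite sign, while the medians of all genes stayed between -0.07 and 0.000385. In E11.5 against E10.5 this scaling gave the members -0.21, against 0.04 otherwise. The median of all genes also changed sign there, to -0.09 from 0.07.

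The member with the smallest adjusted p between stages was Cox5a in E13.5 against E10.5, with -1.87 ± 0.46 (limma adjusted p = 0.0945). With its lone capture, E10.5 was assumed to vary like the later stages. Cox6a2 followed with 11.9 and 2.62 RPKM at E16.5, against 0 and 0.32 RPKM at E11.5 (2.57 ± 0.72, limma adjusted p = 0.116). It passed the filter on low values only through later captures, and its levels rested on few cells, 4 of 31 and 2 of 34 at E16.5. Ndufs1, singled out after its values were seen, had 7.46 and 13.1 RPKM at E16.5 against 24.6 and 40.6 RPKM at E12.5 (-1.58 ± 0.46, limma adjusted p = 0.179). Both E16.5 captures lay below both E12.5 ones. It was found in 32.3% and 44.1% of E16.5 cells, against 66.7% and 73% of E12.5 cells.

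Contrasts with E13.5 turned on its first capture. The members' median was 0.21 in E13.5 against E12.5, -0.32 in E16.5 against E13.5 and 0.29 in E13.5 against E10.5. Without the first E13.5 capture the medians were -0.18, 0.07 and -0.13, each with the opposite sign. Among the 69 members of at least 20 RPKM, 63 were higher in the first than in the second E13.5 capture, with a median log2 difference of 0.78. All 2884 genes of that level had a median of 0.17, and 59 ribosomal protein genes one of 0.80. The other stages' capture pairs gave members' medians of -0.10, -0.08 and 0.11. The excess of the first E13.5 capture was thus larger than any other difference between captures of a stage, and the respiratory chain shared it with the ribosomal protein genes.

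The difference between the E13.5 captures moved with gene length. Members are short, with a median exonic length of 1560 bases against 4447 bases for all tested genes with a length. Up to 1000 bases, 18 members had a median difference of 0.80, and 134 other genes 0.83. From 1000 to 2000 bases, 26 members had 0.87 and 468 other genes 0.63. Members and other short genes were thus shifted alike in sign. From 2000 to 4000 bases, 18 members had 0.61 and 992 other genes 0.21. From 4000 to 8000 bases, 6 members had 0.21 and 839 other genes -0.17. Ndufs1, the only member over 8000 bases, had -0.30, beside -0.41 for 296 other genes. The part of chip size and length in the E13.5 difference was not tested.

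**Figure D4:**
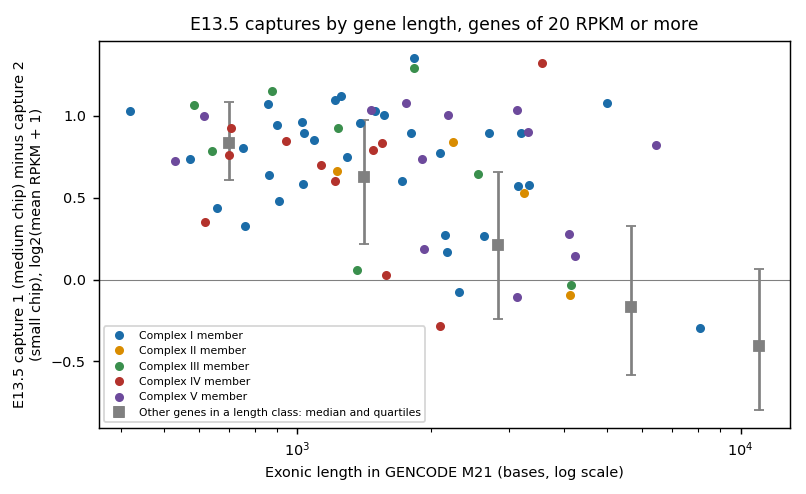
First minus second E13.5 capture in log2(mean RPKM + 1) against exonic length (log axis) for the 69 members of at least 20 RPKM (points) and medians with quartiles of other genes in 5 length classes (squares, drawn inside each class). Up to 1000 bases the medians were 0.80 for members and 0.83 for other genes. In each longer class the members' median was the higher one, such as 0.87 against 0.63 from 1000 to 2000 bases.

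Cells high for Sertoli markers were compared with cells low for them inside the 6 late captures. High cells had at least 6 of 12 Sertoli markers at 1 RPKM or more (82 cells) and low cells at most 2 (124 cells). No marker is a member. The means per capture and class were fitted with limma with capture as a block. Of 12118 genes tested, 5.49% were called, 2.97% higher and 2.52% lower in high cells. Of the 81 members tested, 2 were higher and 0 lower, Cox7a1 and Cox6a1, both of complex IV. At an unadjusted p under 0.05 there were 10 members (12.3%), against 19.5% of all genes. The members' median difference was 0.12, and that of all genes was -0.06.

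Cox7a1, the muscle form of subunit VIIa, lies on chromosome 7 at 30184144 to 30186078 (GRCm38, plus strand). In high cells it had 7.15 and 12.3 RPKM in the E12.5 captures, 54.9 and 52.4 RPKM at E13.5 and 23.2 and 6.07 RPKM at E16.5. In low cells it was listed at 0 in both E12.5 and both E16.5 captures and had 16.2 and 7.07 RPKM at E13.5. High cells were above low cells in 6 of 6 captures. The difference was 3.10 ± 0.54 (limma adjusted p = 0.00489), and it depends on the pseudocount, since 4 low values were 0. It was called in each of 6 fits that left out a capture, between 2.80 and 3.38.

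Cox7a1 was found in a minority of high cells and in few low cells. Cox7a1 reached 1 RPKM in 34 of 82 high cells (41.5%, Wilson 95% interval 31.4% to 52.3%) and in 4 of 124 low cells (3.23%, 1.26% to 8.0%). Of 38 cells between the classes, 3 had it. Among early cells, which were not classed, 6 of 59 had it at E10.5, and 3 of 52 and 4 of 41 in the E11.5 captures. The 34 positive high cells had a median of 43.4 RPKM, with a range of 1.01 to 486 RPKM. All 34 also had Cox7a2, the widely expressed form, which was found in 80 of all 82 high cells (97.6%). The 4 positive low cells had a median of 238 RPKM, above that of the positive high cells, with a range of 7.97 to 275 RPKM. Positive high cells were present in all 6 captures, from 1 of 5 in the first E12.5 capture to 14 of 22 in the first E13.5 capture. Cox7a1 took 2.84% to 23.3% of the Cox7a1 and Cox7a2 sum in high cells and 0% to 5.51% in low cells. Cox7a2 itself was higher in 5 of 6 captures and was not called. The intervals cover counting of cells only.

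Cox6a1, the widely expressed form of subunit VIa, lies on chromosome 5 at 115345642 to 115348981 (minus strand). It had 1094 and 791 RPKM in high cells of the E12.5 captures, 1250.1 and 969 RPKM at E13.5 and 737 and 925 RPKM at E16.5. Low cells had 597 and 674 RPKM at E12.5, 895 and 476 RPKM at E13.5 and 696 and 591 RPKM at E16.5. High cells were above low cells in 6 of 6 captures, by little in the first E16.5 capture. The difference was 0.56 ± 0.14 (limma adjusted p = 0.0324). The call was lost in 4 of 6 fits that left out a capture, each of the first E12.5, both E13.5 and the second E16.5 captures, with values of 0.46 to 0.57 and adjusted p of up to 0.126. Over all 14 alternatives tried it was called in 5.

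Cox6a2, the muscle form of the same subunit, was found in 10 of 82 high cells (12.2%, Wilson 95% interval 6.76% to 21%) and in 0 of 124 low cells, which allows a share of up to 2.42% by a limit of 3 cells, or 3.005% by the Wilson interval. High cells had 0 and 0.08 RPKM in the E12.5 captures, 1.32 and 9.11 RPKM at E13.5 and 19.3 and 5.24 RPKM at E16.5. Low cells were listed at 0 in all 6 captures. The difference was 1.94 ± 0.62 and was not called (limma adjusted p = 0.0978). Since Cox6a2 passed the filter on low values only through the high cells, this estimate is given as a description. Of the high cells, 2 had both muscle forms, Cox7a1 and Cox6a2. The muscle forms of both subunits were thus found in high cells, and Cox7a1 also in 4 low cells. Whether the 2 forms share cells more or less often than unrelated genes was not tested.

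**Figure D5:**
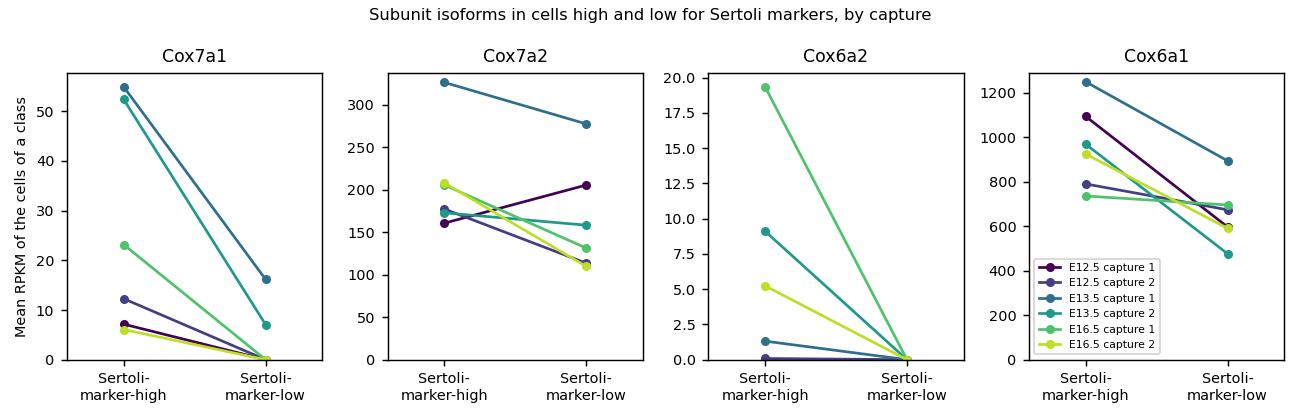
Mean RPKM of Cox7a1, Cox7a2, Cox6a2 and Cox6a1 in Sertoli-marker-high and Sertoli-marker-low cells; each line is 1 of 6 late captures, axes start at 0 and differ between panels. Cox7a1 and Cox6a1 are higher in high cells in 6 of 6 captures, and Cox6a2 is listed at 0 in all low cells.

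Other measures differed between the classes too. High cells had a median of 6176 detected genes and low cells 5458, and the median was higher in high cells in 6 of 6 captures. The implied depth over all cells was 3.67 M reads in high and 5.70 M reads in low cells, but 33 of 82 high and 69 of 124 low cells came from the deeper E13.5 captures. Within captures, the median depth of high cells was 0.95 to 1.27 times that of low cells, and it was the higher one in 4 of 6. Fewer than 3 of 6 interstitial markers were found in 53 of 82 high and 11 of 124 low cells. Striated muscle markers (Ckm, Myh6, Tnnt2 and Actc1) summed to 0.78 to 29 RPKM in high and 0 to 1.26 RPKM in low cells over the captures, and at least 3 of the 4 were found in 0 high and 0 low cells. In each class 1 of the 4 was in no cell. Germ cell markers summed to 0 to 69.1 RPKM in high and 0 to 0.07 RPKM in low cells, with at least 3 of 5 in 3 high and 0 low cells; 1 of the 5 was in no high cell and 4 were in no low cell. The erythroid marker in the table had 0 to 37.1 RPKM in high and 0 to 2.96 RPKM in low cells. The 2 macrophage markers in the table summed to 0.03 to 11.7 RPKM in high and 0 to 5.17 RPKM in low cells. Coelomic epithelium markers were lower in high cells, at 1.48 to 10.2 RPKM in high and 21.3 to 65.5 RPKM in low cells. Smooth muscle markers summed to 0 to 225 RPKM in high and 7.59 to 1389 RPKM in low cells, and Leydig markers to 17.9 to 451 RPKM in high and 3.37 to 2681 RPKM in low cells. Endothelial markers summed to 0.16 to 9.15 RPKM in high and 0.44 to 31.8 RPKM in low cells. The part of these measures in the differences was not tested.

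Some members lay on the same side in every capture. Higher in high cells in 6 of 6 captures were 7 members (8.64%, against 5.61% of all genes): Cox7a1, Cox6a1, Ndufa4, Ndufb4, Ndufb7, Ndufs6 and Uqcrq. Lower in 6 of 6 were 2 members (2.47%, against 6.41%): Atp5l and Ndufb6. These names come from the count after it was made. Ndufa4 had a mean over captures of 525 ± 169 RPKM in high and 402 ± 152 RPKM in low cells (0.41 ± 0.14, limma adjusted p = 0.119). Ndufb4 had 22.5 ± 14.1 RPKM in high and 9.13 ± 5.12 RPKM in low cells (1.15 ± 0.46, limma adjusted p = 0.184). Its difference was 2.82 in the second E12.5 capture and 0.40 to 1.09 in the others. Windows found in no other gene were 66.6% for Ndufb4 and 71.8% for Ndufb6. Atp5l had 29.2 ± 12.45 RPKM in high and 52.3 ± 16.4 RPKM in low cells (-0.85 ± 0.31, limma adjusted p = 0.143), and it is the member that shares windows with Gm10221. By complex, the medians were 0.20, 0.03, 0.12, 0.04 and 0.10 for complexes I to V.

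The bases before the start are shown for Cox7a1 and Cox6a1, the 2 members called in the class comparison, and for Cox7a2. Cox7a2 was not called and is shown because it and Cox7a1 encode the same subunit and differed in where they were found. Sequences are the 250 bases before the RefSeq start (GRCm38.p6) on the gene's strand, with matches of 4 motifs in capitals, each searched on both strands: the letters GCGC, any base and TGCGC of NRF1 and CCGGAAG of ETS factors, both known regulators of respiratory genes, CAAGGTCA of Nr5a1 and AACAATG of SOX factors. The RefSeq starts of all 3 lie inside the GENCODE M21 genes, so the last bases of each window lie inside them too. The ETS match of Cox6a1 lies in that stretch.
Cox7a1, chr7:30183921-30184170, plus strand: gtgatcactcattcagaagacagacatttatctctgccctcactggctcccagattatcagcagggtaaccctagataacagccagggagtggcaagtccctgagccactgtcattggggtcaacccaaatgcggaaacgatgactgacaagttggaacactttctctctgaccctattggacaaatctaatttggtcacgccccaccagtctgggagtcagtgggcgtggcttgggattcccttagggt
Cox7a2, chr9:79759854-79760103, minus strand: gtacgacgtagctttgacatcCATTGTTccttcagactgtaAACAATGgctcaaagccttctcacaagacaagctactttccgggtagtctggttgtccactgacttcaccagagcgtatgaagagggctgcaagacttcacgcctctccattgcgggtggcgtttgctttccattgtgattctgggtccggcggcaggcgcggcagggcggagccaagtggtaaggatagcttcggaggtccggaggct
Cox6a1, chr5:115348959-115349208, minus strand: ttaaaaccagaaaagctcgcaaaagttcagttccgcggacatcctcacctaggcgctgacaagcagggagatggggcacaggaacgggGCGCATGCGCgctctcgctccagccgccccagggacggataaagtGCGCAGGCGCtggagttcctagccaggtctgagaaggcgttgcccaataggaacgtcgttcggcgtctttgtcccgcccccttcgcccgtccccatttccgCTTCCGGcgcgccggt
In Cox6a1 the capitals mark 2 NRF1 matches, the first beginning 162 bases before the start, and an ETS match at 16 bases. In Cox7a2 they mark SOX matches at 229 and 209 bases. Cox7a1 held none of the 4 in this window. Of 69 members with an entry, 13 held the NRF1 motif (18.8%, against 4.23% of 27025 genes), 12 the ETS motif (17.4% against 7.83%), 3 the CAAGGTCA motif (4.35% against 1.51%) and 1 the SOX motif (1.45% against 3.78%). The motifs did not overlap in the sequences shown. A match is a run of letters, not a site, and does not show which factor, if any, binds it.

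Members varied together between cells only weakly. Over the cells of a capture, the median Spearman correlation between pairs of the 69 members of at least 20 RPKM lay between 0.06 and 0.25. Pairs of ribosomal protein genes gave 0.19 to 0.51, and pairs of all genes of that level 0.01 to 0.07. The members thus stood between the other sets in each of the 9 captures. Within complexes the medians were -0.10 to 0.40, and between complexes -0.01 to 0.31, so pairs of one complex did not stand clear of pairs from different ones. Cells of a capture share chip and run, and depth differs between them.

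No gene of the lists around the chain was called, where 0% to 1.52% of all genes were called in the contrasts of captures and 5.49% in high against low cells. Of 47 assembly factors in the table, which build the complexes, 0 were called in any of the comparisons above, with a median late minus early difference of 0.08. The 17 genes of the tricarboxylic acid cycle, which feeds complexes I and II, had 0 calls and a median of -0.15. The 6 genes for electron carriers and the ATP synthase inhibitor had 0 calls and a median of 0.15. The 16 regulators of mitochondrial genes had 0 calls and a median of 0.06. In high against low cells, where 14 of the 16 regulators were tested, the medians were 0.05, 0.19, -0.08 and -0.25 in the same order.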

How the data were processed

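The authors deposited RPKM values for 400 of the 435 labelled cells, and 35 cells were not analysed here. Per the labels, cells were captured on Fluidigm C1 chips and made into cDNA with SMARTer and libraries with Nextera XT. GRCm38.p3 and mm10 are the builds given by the submitters' processing notes. For the aligner, the annotation and the counter, names were not given in the sources used here. From the values, the smallest step of RPKM times exonic length (GENCODE M21) gave the implied depth of each cell.

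A cell needed 3000 detected genes, which 3 cells, all at E16.5, did not reach. In the second E12.5 capture the cells of wells 49 and 56, with a correlation of 0.998 against 0.701 for the next pair, were averaged and counted as 1 cell. Each capture was represented by the mean RPKM of its cells, on which limma 3.58.1 in R 4.3.3 was run as log2(mean + 1), with trend and robust empirical Bayes, for all genes with a mean of at least 1 RPKM in at least 2 captures. A difference is therefore on the log2(value + 1) scale, which understates changes of low genes. P-values were adjusted by Benjamini-Hochberg over all genes tested, with a threshold of 0.05. The classes by Sertoli markers (Sox9, Amh, Dhh, Ptgds, Cst9, Cst12, Aard, Defb19, Mro, Rhox8, Etd, Serpina5) needed 5 cells in a capture. The fits were tested on simulated data.

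Named with values were the members past the threshold, the 2 highest of each complex, the 2 lowest of all, the isoform families and the largest difference each way in each complex; others were chosen after their values were seen. Results for 1 single gene are not reported here, and it is left out of the plots of named genes. The members and lists were chosen with earlier results of these data known. Alternatives were pseudocounts of 0.1 and 10, no filter, the same sum in every cell, the mean of log2 values, other class limits, no block and each capture left out.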

Additional observations from a re-analysis of the deposited data

Results flagged for a closer look

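Sets of 6 late captures, or of 6 differences of high minus low cells, were checked with a limit that about 1 in 20 independent sets pass. These sets share captures, and the sums contain members, so a count of sets cannot be set against that rate. In 14 of 67 sets the highest or lowest value lay far from the other 5. The first E13.5 capture was the high one in 8 of them: Atp5c1 (543.7 RPKM), Cox7a2 (290.4 RPKM), Uqcrb (338.7 RPKM), Uqcrq (105.6 RPKM) and the sums of complexes I (5070 RPKM), III (1572 RPKM), IV (2959 RPKM) and V (2377 RPKM). The part of its medium chip was not tested.

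The second E12.5 capture had the lowest Uqcrc1, 48.85 RPKM, and the largest high minus low difference of Ndufb4, 2.816 on the log2 scale. The lowest members rested on few cells. Ndufa4l2 had 5.512 RPKM in the first E12.5 capture and a high minus low difference of -3.034 there. Cox7b2 had 0.2881 RPKM in the first E16.5 capture and a difference of 0.5559 there.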

How the results depend on the processing

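Of 1175 recomputed values, 1143 kept their direction and side of the threshold or moved by less than the spread between captures, 9 lost a call, 7 gained one, 16 moved and 0 reversed a call. Among the 899 values for named members, 77 changed sign without a call. No member was called in late against early captures or between stages under any alternative run. Leaving out a capture gave members' medians of -0.18 to 0.58 in E13.5 against E12.5, -0.69 to 0.068 in E16.5 against E13.5 and -0.13 to 0.60 in E13.5 against E10.5, the ends being the fits that lacked either E13.5 capture. In high against low cells, leaving out a capture gave 1 to 3 member calls. There was 1 call with a pseudocount of 10, with no filter, with the same sum in every cell and without the capture block, in each case Cox7a1. The mean of log2 values gave 9 calls, Cox6a1, Cox6a2, Cox7a1, Ndufa10, Ndufa8, Ndufb4, Ndufs6, Sdha and Uqcrq, where 12.6% of all genes were called, and a members' median of 0.40; this scaling moved the median of all genes to 0.11. The cause was not tested. Cox7a1 was called in 14 of 14 alternatives (1.26 to 5.26), Cox6a1 in 5 of 14 (0.46 to 1.02) and Cox6a2 in 2 of 14 (0.55 to 4.10). No paired analysis was possible because of what the replicate numbers are: they only name captures and cells, and the labels give no shared number across stages. That holds for the stage contrasts; high and low cells of the same capture were paired by the capture block. Leaving out the E10.5 capture gives no value for contrasts with E10.5. RPKM without counts leaves the counting error of low members unknown, and E10.5 lends no spread of its own.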

Other observations

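The 3 members on the X chromosome, Cox7b, Ndufa1 and Ndufb11, had levels of 107.4 to 187 RPKM and a median late minus early difference of -0.13. Atp5s and Atp5sl carry the prefix of the ATP synthase; Atp5s was found in 18.2% of cells at 9.45 ± 7.13 RPKM over 9 captures, and Atp5sl in 23.7% at 5.96 ± 4.80 RPKM. Across members, level and exonic length had a Spearman correlation of -0.26, over genes that are not independent of each other.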
